A study of Arabidopsis thaliana with 24 samples.

Results

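The Aux/IAA repressors and the TIR1/AFB auxin receptors of Arabidopsis thaliana were followed across 9 chromatin mutant genotypes and Col-0, the wild-type accession. The group was fixed by gene identifier, 29 Aux/IAA genes (IAA1 to IAA20 and IAA26 to IAA34) and 4 receptor genes (TIR1, AFB1, AFB2 and AFB3), and all 33 were found among the 32548 genes of the tables. Auxin acts by joining a TIR1/AFB protein, the F-box subunit of an SCF ubiquitin ligase, to an Aux/IAA protein, which is then degraded. Without auxin, Aux/IAA proteins bind ARF transcription factors and recruit TOPLESS co-repressors to them, so auxin-responsive genes stay off. Many Aux/IAA genes are themselves switched on by ARF proteins, which makes the family a feedback loop and a common readout of auxin response.

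Seedlings were 11 days old, grown on plates under a cycle of 16 h light (23 °C) and 8 h dark (22 °C). Total RNA gave 24 libraries, 2 for each of 9 genotypes and 6 for Col-0, in 3 separately normalised tables called set 1, set 2 and set 3 here. Set 1 held ino80 and Col-0, and set 2 held jmj24, atx4/5;jmj24 and Col-0. Set 3 held atx1/2, atx4/5, atx1/2/4/5, atx2/3/4/5, jmj24/26/28, WDR5A_RNAi and Col-0. WDR5A_RNAi is labelled an RNAi line, and in the other genotypes the labels give every named gene as homozygous mutant. So atx1/2/4/5 carries atx1, atx2, atx4 and atx5, and atx2/3/4/5 carries atx2, atx3, atx4 and atx5, while the allele names are not given. ATX1 to ATX5 are histone H3K4 methyltransferases of COMPASS complexes and WDR5A is a core subunit of such complexes. JMJ24, JMJ26 and JMJ28 are JmjC-domain proteins, and INO80 is a chromatin remodelling ATPase. Nothing in the labels says that the 2 libraries of a genotype came from separately grown seedlings, so p-values reflect library-to-library spread only, part of which could be technical. In seedlings taken as a bulk sample, fewer cells of a type and less RNA per cell cannot be told apart.

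Library totals were 18.2 to 29.2 M normalised reads, a total after adjustment that is not the sequencing depth, and replicates correlated with Pearson's r of 0.986 to 0.990 across genes. The targeted genes went with the labels only in part. INO80, JMJ24, JMJ26 and JMJ28 were lower where named. ATX4 was lower in the 4 genotypes that name it, and ATX5 was lower in 3 of those 4. ATX5 averaged 578 normalised reads in atx4/5;jmj24 and 455 in Col-0. Against the labels, WDR5A averaged 918 in WDR5A_RNAi and 100.1 in Col-0, and ATX3 averaged 690 in atx2/3/4/5 and 386 in Col-0. ATX2 was lower in none of the genotypes that name it, and ATX1 stood at 568 and 191 in the 2 atx1/2/4/5 libraries, against 258 and 257 in Col-0. In atx1/2 neither ATX1 nor ATX2 was called lower, so expression did not bear out that label. Whether these reads lie outside the mutated or silenced stretch was not tested. The genotypes in which the targeted gene went against the label are therefore called libraries labelled WDR5A_RNAi, atx2/3/4/5, atx1/2/4/5 and so on, and directions below belong to the libraries under those labels.

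A small RNA, miR393, guides cleavage of auxin receptor transcripts, so its sequence and its best matching sites in the 4 genes are shown before the levels. Whether each of the 4 transcripts is cleaved, that of AFB1 with the most mismatches included, was not tested. The mature miR393a-5p is given 5′ to 3′ with the seed, bases 2 to 8, in capitals, and miR393b-5p has the same letters. Below it stand the best matching stretches of the coding sequences, read from the RefSeq TAIR10.1 assembly, with capitals at the bases that differ from a perfect complement of the microRNA.
miR393a-5p: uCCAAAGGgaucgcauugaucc
TIR1 site, chr3:23273727-23273748, minus strand: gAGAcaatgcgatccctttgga
AFB1 site, chr4:1405341-1405362, minus strand: gAGAcCatgcgatccctttgga
AFB2 site, chr3:9870237-9870258, plus strand: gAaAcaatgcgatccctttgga
AFB3 site, chr1:4369085-4369106, minus strand: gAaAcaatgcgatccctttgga
The 4 receptor sites lie in exons of coding sequence and differ from a perfect complement at 2 to 4 of 22 bases. AFB2 and AFB3 share 1 site sequence with 2 mismatches, TIR1 has 3 and AFB1 has 4. The best stretch in any of the 29 Aux/IAA coding sequences had 8 to 11 mismatches, so the site sets the receptor genes apart from their substrates.

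What marks most Aux/IAA genes is the degron, the short stretch that TIR1/AFB receptors grip in the presence of auxin. Its core was encoded in 23 of the 29 genes and was not found in IAA20, IAA30, IAA31, IAA32, IAA33 and IAA34. The coding DNA around the core is shown for 5 repressors called lower in the results below, with the core codons in capitals.
IAA3 degron codons, chr1:1129019-1129045, minus strand: attgttGGATGGCCACCAGTTagatct
IAA19 degron codons, chr3:5264310-5264336, plus strand: gtggtgGGGTGGCCACCGGTTtgttct
IAA5 degron codons, chr1:5366275-5366301, minus strand: gttgtgGGTTGGCCACCGGTTtgttcg
IAA29 degron codons, chr4:15583945-15583971, plus strand: gttgttGGATGGCCACCAGTAaaaaca
IAA27 degron codons, chr4:14324654-14324680, minus strand: gtggtgGGATGGCCACCAATAagatca
IAA27 is 1 of the genes with a variant of the core, differing from the usual residues in its last codon, while the other 4 encode the usual core.

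Auxin response elements, the DNA letters that ARF proteins bind, were searched on both strands as TGTCTC and TGTCGG in the 300 bases from 250 before to 50 after each annotated start. Of the 29 Aux/IAA genes 16 held at least 1 of these words (55.2%), against 5123 of 27443 protein-coding genes (18.7%). TGTCTC stood in 12 Aux/IAA windows (41.4%, against 14.2% of all) and TGTCGG in 6 (20.7%, against 5.1% of all), and the words share their opening letters. The 250 bases before the start are shown for 5 genes that fell together below, 3 with the words, in capitals, and 2 without.
IAA19 upstream, chr3:5263751-5264000, plus strand: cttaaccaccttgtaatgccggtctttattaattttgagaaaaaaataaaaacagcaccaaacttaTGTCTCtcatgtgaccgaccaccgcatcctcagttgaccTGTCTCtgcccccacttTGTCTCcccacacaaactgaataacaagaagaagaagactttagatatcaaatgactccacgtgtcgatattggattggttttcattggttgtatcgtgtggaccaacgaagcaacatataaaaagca
IAA5 upstream, chr1:5366498-5366747, minus strand: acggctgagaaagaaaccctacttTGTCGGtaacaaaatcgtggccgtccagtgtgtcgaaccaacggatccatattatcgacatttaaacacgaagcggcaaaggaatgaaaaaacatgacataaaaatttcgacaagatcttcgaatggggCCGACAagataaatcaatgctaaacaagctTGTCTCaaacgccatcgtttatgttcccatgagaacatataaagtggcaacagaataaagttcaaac
IAA1 upstream, chr4:8360746-8360995, plus strand: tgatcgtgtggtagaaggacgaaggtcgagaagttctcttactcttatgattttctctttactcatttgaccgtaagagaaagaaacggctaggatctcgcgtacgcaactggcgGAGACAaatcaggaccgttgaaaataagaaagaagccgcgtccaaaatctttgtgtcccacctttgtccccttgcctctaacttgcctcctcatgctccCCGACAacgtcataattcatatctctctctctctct
IAA3 upstream, chr1:1129690-1129939, minus strand: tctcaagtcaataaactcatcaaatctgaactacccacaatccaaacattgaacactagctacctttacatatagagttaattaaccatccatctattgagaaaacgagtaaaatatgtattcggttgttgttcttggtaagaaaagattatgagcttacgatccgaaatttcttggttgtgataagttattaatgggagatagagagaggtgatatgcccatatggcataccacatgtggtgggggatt
IAA29 upstream, chr4:15583082-15583331, plus strand: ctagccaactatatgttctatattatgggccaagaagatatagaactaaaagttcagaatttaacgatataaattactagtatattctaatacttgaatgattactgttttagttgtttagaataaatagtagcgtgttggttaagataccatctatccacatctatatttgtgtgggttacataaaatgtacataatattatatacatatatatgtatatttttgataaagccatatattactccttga
IAA19 held TGTCTC 3 times, IAA5 held 1 TGTCTC and 2 TGTCGG, and IAA1 held 1 of each, counting both strands. A match is a stretch of letters and not a shown binding site, and its lack in IAA3 and IAA29 says nothing of more distant elements.

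In Col-0 seedlings the repressor genes covered a wide range of levels. Per kilobase of exon in set 3, IAA16 was highest at 3940 normalised reads per kb, followed by IAA9 at 3260, IAA2 at 3040, IAA8 at 2950 and IAA7 at 2410. The IAA2 libraries overlapped those of IAA9 and of IAA8, so its place between them is not resolved. TIR1 was the highest receptor there at 1060 per kb, with AFB2 at 569, AFB1 at 460 and AFB3 at 359 per kb. The set 3 Col-0 libraries of these 4 did not overlap. AFB1 and AFB3 stood the other way round in Col-0 of the other sets, also without overlap. AFB3 had 305 and AFB1 192 per kb in set 1, and they had 417 and 238 in set 2. IAA2 was at 941 per kb in set 2, rank 7 among the members. In set 3 the 6 genes without a degron core were all low, between 3.18 per kb for IAA32 and 39.1 per kb for IAA30. IAA15 was listed at 0 in both Col-0 libraries of set 3.

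Of the 29 repressor genes, 17 were lower than in Col-0 in the libraries labelled atx2/3/4/5, 13 in those labelled atx1/2/4/5 and 8 in those labelled WDR5A_RNAi, with 0 higher in each. Of the 4 receptors, 3, 2 and 1 were lower in the same order. In atx1/2, jmj24 and jmj24/26/28 0 members were called, and in atx4/5 1 was. Calls are from limma on log2(value + 1) with all groups of a table, at an adjusted p under 0.05 over all genes tested (Benjamini-Hochberg), and fold changes on this scale understate the change of low genes. In atx2/3/4/5 20 of 33 members were lower and 0 higher, where 38% of all genes were called, 20.1% lower and 17.8% higher. In atx1/2/4/5 15 were lower and 0 higher, where 33.3% of all genes were called, 17.1% lower and 16.2% higher. In WDR5A_RNAi 9 were lower and 0 higher, where 9.56% of all genes were called, 5.03% lower and 4.52% higher. The median log2 fold change of the members was -0.61, -0.46 and -0.30 in these 3, while the median of all genes was 0 in each. The 3 comparisons share their 2 Col-0 libraries.

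**Figure D1:**
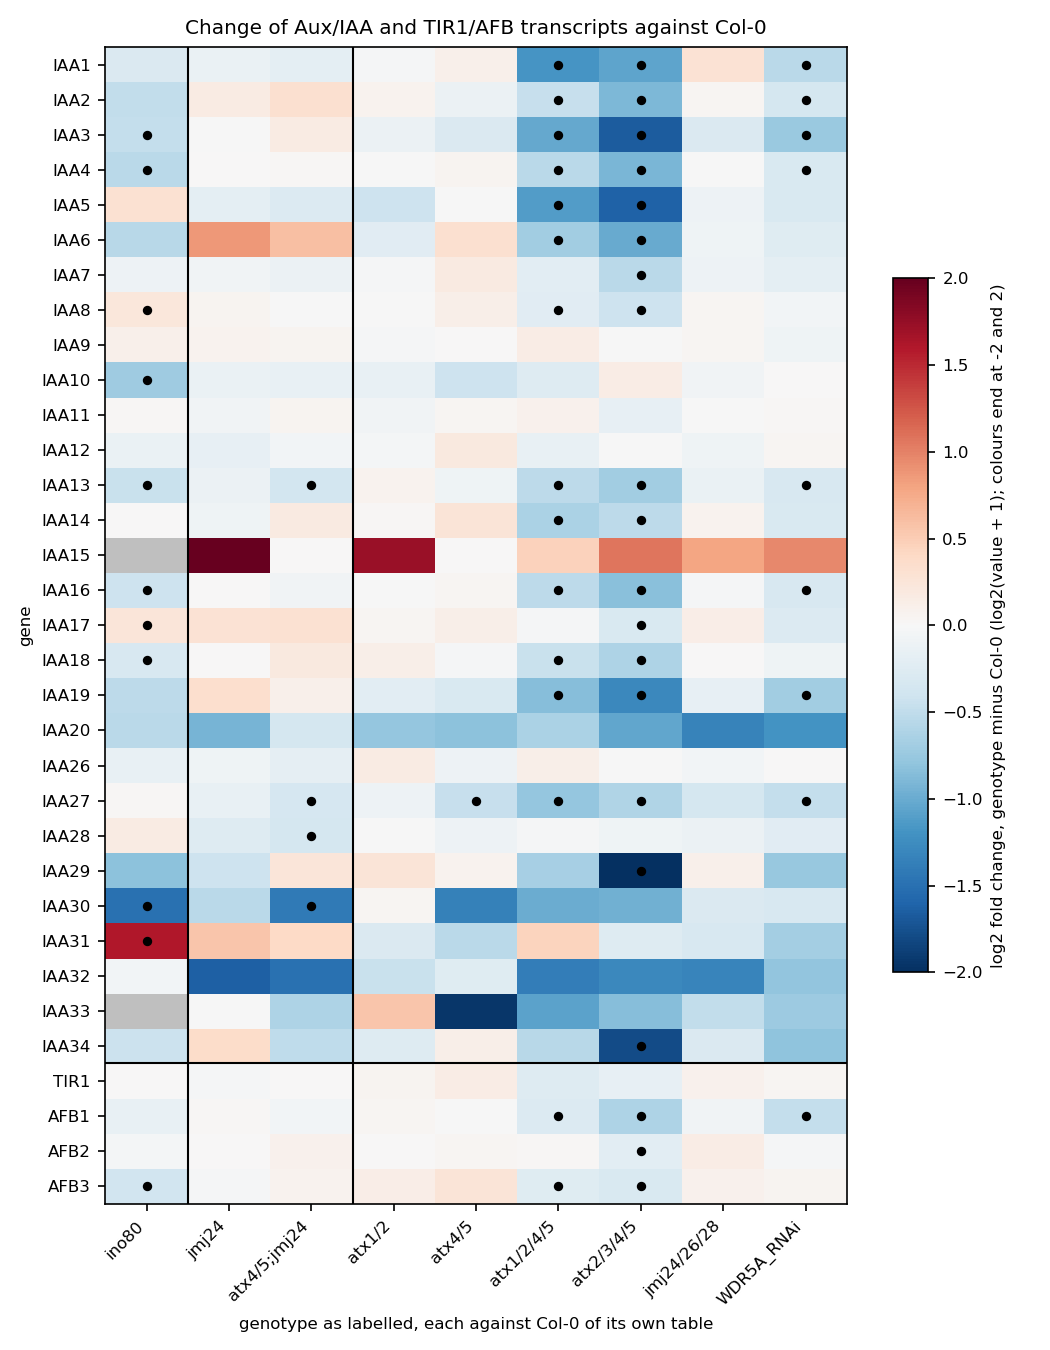
Log2 fold change of the 29 Aux/IAA genes (above the line) and the 4 receptors (below it) in each genotype against the Col-0 libraries of its own set, with vertical lines between sets 1, 2 and 3. Dots mark an adjusted p under 0.05, grey marks 2 genes not tested in set 1, and the columns atx1/2/4/5, atx2/3/4/5 and WDR5A_RNAi hold 15, 20 and 9 dots, all on lower values.

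With the column totals set equal, which moves the median of all genes up by 0.17 in atx2/3/4/5 and by 0.13 in atx1/2/4/5, 17 members were lower and 1 (IAA9) higher in atx2/3/4/5, and 11 were lower and 2 (IAA9 and IAA26) higher in atx1/2/4/5. Over all genes that scaling gave 7967 higher and 3272 lower in atx2/3/4/5, against 4433 and 5000 as deposited, and 6501 higher and 2885 lower in atx1/2/4/5, against 4025 and 4248.

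Among the receptors AFB1 (AT4G03190) showed the largest fall. In set 3 AFB1 had 664 and 737 normalised reads in atx2/3/4/5, 887 and 880 in atx1/2/4/5 and 813 and 725 in WDR5A_RNAi, against 1047 and 1092 in Col-0. All 6 of these mutant libraries lay below both Col-0 libraries. The log2 fold change was -0.61 ± 0.09 in atx2/3/4/5 (SE, limma adjusted p 4.32e-05), -0.28 ± 0.09 in atx1/2/4/5 (adjusted p 0.0227) and -0.48 ± 0.09 in WDR5A_RNAi (adjusted p 0.00333). In atx1/2 it had 1018 and 1180, in atx4/5 1006 and 1115 and in jmj24/26/28 998 and 1042 reads. The first pair of genotypes overlapped Col-0, and jmj24/26/28 lay just below it without being called. AFB1 had 474 and 603 reads in atx4/5;jmj24 and 551 and 569 in jmj24, against 552 and 556 in Col-0 of set 2. It had 415 and 390 reads in ino80, against 451 and 443 in Col-0 of set 1, below Col-0 but not called (limma adjusted p 0.237).

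AFB3 (AT1G12820) had 648 and 659 normalised reads in atx2/3/4/5 and 681 and 680 in atx1/2/4/5, against 805 and 801 in Col-0. The groups did not overlap, with log2 fold changes of -0.30 ± 0.07 (SE, limma adjusted p 0.00376) and -0.24 ± 0.07 (adjusted p 0.0171). AFB3 was not lower in the other set 3 genotypes: it had 833 and 833 in WDR5A_RNAi, 882 and 831 in jmj24/26/28, 1000 and 918 in atx4/5 and 845 and 922 in atx1/2. In all 4 of these genotypes both libraries lay above both Col-0 libraries and none was called, the largest difference being that of atx4/5 (log2 fold change 0.25, limma adjusted p 0.0709). In set 1 AFB3 had 515 and 532 in ino80, against 720 and 641 in Col-0, and it was the receptor called lower there (log2 fold change -0.38 ± 0.08, limma adjusted p 0.00997). In set 2 it had 935 and 1014 in atx4/5;jmj24 and 905 and 925 in jmj24, against 920 and 943 in Col-0.

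AFB2 (AT3G26810) had 1381 and 1298 normalised reads in atx2/3/4/5, against 1495 and 1618 in Col-0, and was called lower by a small step (log2 fold change -0.22 ± 0.06, limma adjusted p 0.0135). It had 1551 and 1608 in atx1/2/4/5, 1530 and 1529 in WDR5A_RNAi, 1703 and 1730 in jmj24/26/28, 1598 and 1595 in atx4/5 and 1493 and 1633 in atx1/2. Both atx2/3/4/5 libraries lay below both Col-0 libraries, while the other genotypes overlapped Col-0 or lay above it. In set 1 AFB2 had 952 and 928 in ino80, against 979 and 960 in Col-0, and in set 2 it had 2054 and 2143 in atx4/5;jmj24 and 1982 and 1969 in jmj24, against 1878 and 2073 in Col-0.

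TIR1 (AT3G62980), the founding auxin receptor, was called in none of the 9 comparisons with Col-0. It had 2541 and 2446 normalised reads in atx2/3/4/5 and 2273 and 2365 in atx1/2/4/5, against 2549 and 3046 in Col-0, with log2 fold changes of -0.16 ± 0.10 (SE, limma adjusted p 0.26) and -0.27 ± 0.10 (adjusted p 0.07). It had 2736 and 3014 in WDR5A_RNAi, 2872 and 3050 in jmj24/26/28, 2813 and 3383 in atx4/5 and 2649 and 3139 in atx1/2. In set 2 TIR1 had 3689 and 3957 in atx4/5;jmj24 and 3454 and 4002 in jmj24, against 3697 and 3898 in Col-0, and in set 1 it had 1889 and 1766 in ino80, against 1897 and 1754 in Col-0. The Col-0 libraries of set 3 lay further apart for TIR1 than the libraries of either genotype labelled with 4 genes, and in sets 1 and 2 the groups overlapped.

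**Figure D2:**
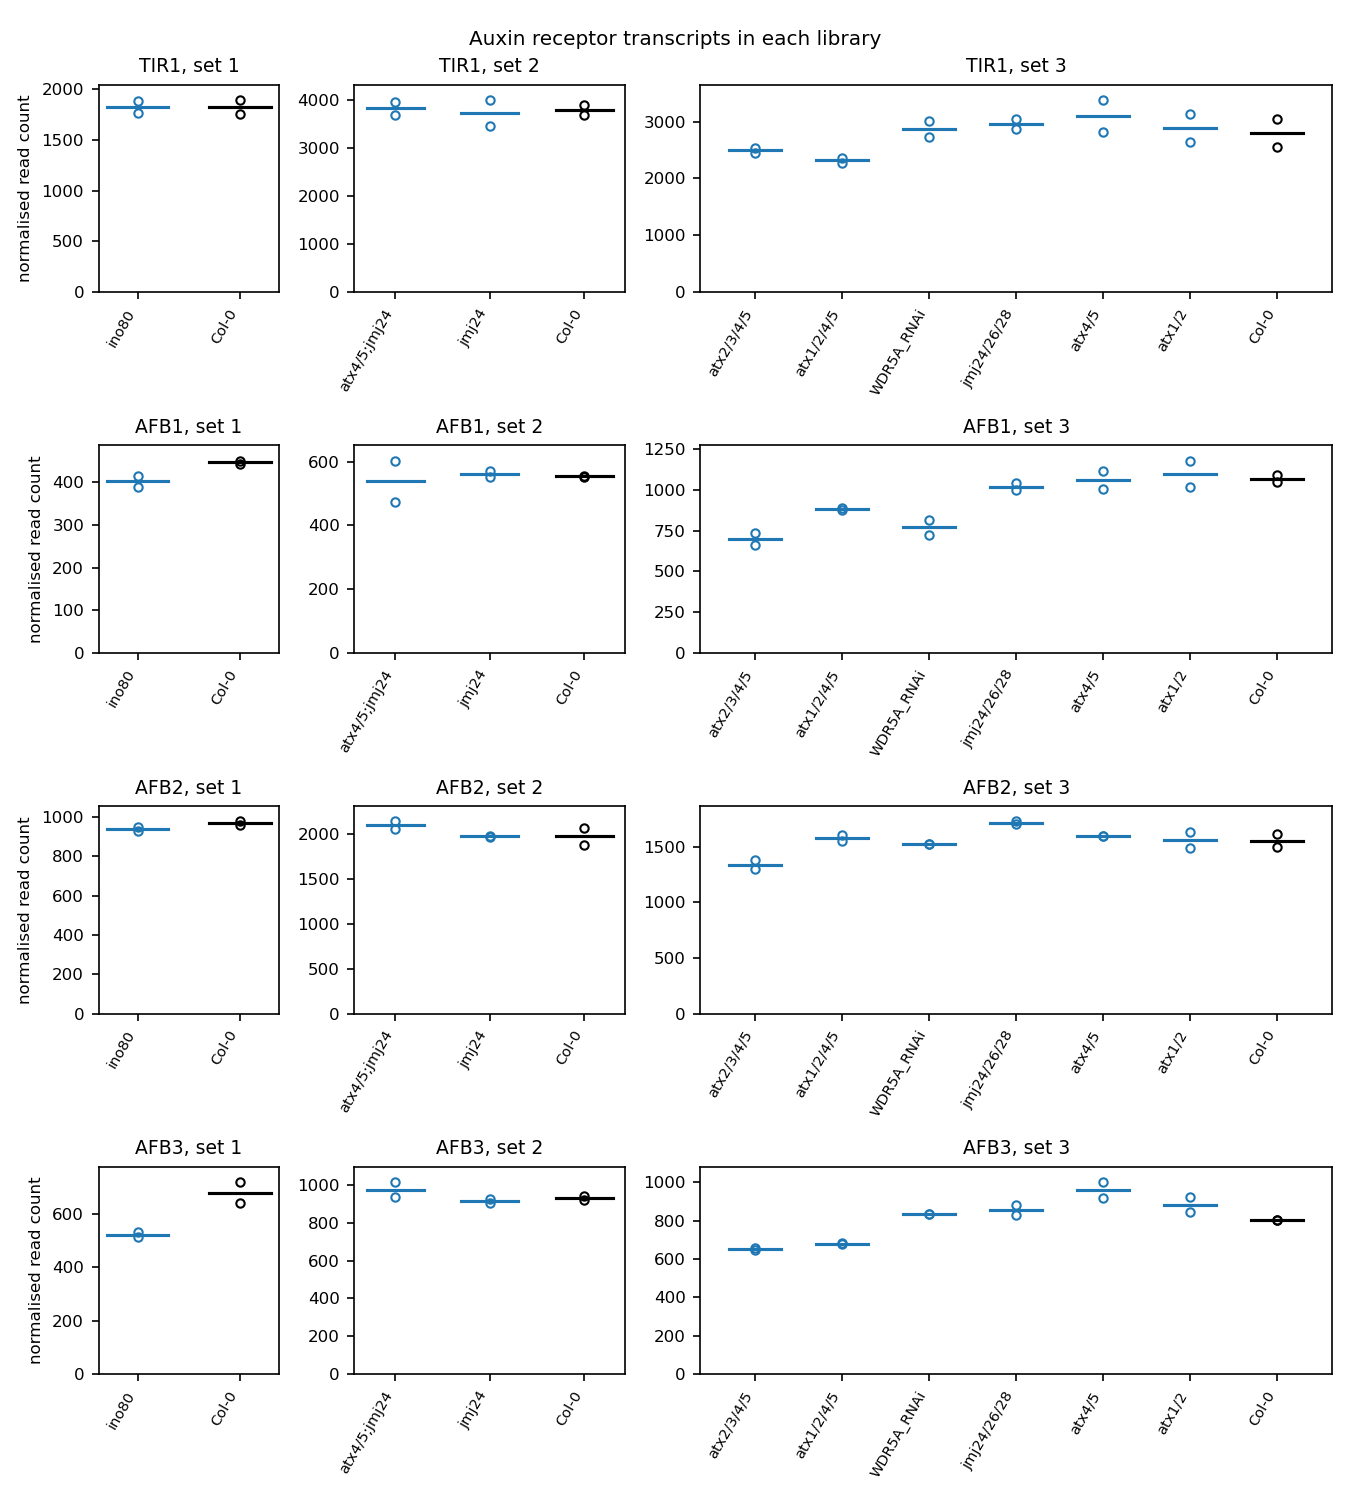
Normalised read counts of TIR1, AFB1, AFB2 and AFB3 (rows) in each library of sets 1, 2 and 3 (columns), linear axes from 0, with a circle for each library, a bar for each group mean and Col-0 in black on the right. AFB1 is lower in atx2/3/4/5, atx1/2/4/5 and WDR5A_RNAi than in Col-0 of set 3, and AFB3 in ino80, atx2/3/4/5 and atx1/2/4/5.

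Some of the receptor calls were narrow. With column totals set equal, AFB1 and AFB3 were no longer called in atx1/2/4/5, nor AFB2 and AFB3 in atx2/3/4/5. The AFB1 and AFB3 calls in atx1/2/4/5 were also lost when either atx1/2/4/5 library or Col-0 replicate 2 was left out (AFB3 also without Col-0 replicate 1), and the AFB1 call in WDR5A_RNAi when WDR5A_RNAi replicate 2 was left out. The AFB2 call in atx2/3/4/5 was lost without atx2/3/4/5 replicate 2 or Col-0 replicate 2. The gene models of AFB1 and AFB3 each overlap 2 other annotated genes on the opposite strand, and the strand of the libraries is not given in the sources used here, so reads of the partners cannot be told apart.

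The precursor of miR393b (MIR393B, AT3G55734) was near the limit of detection. It had 1.03 and 0.0198 normalised reads in atx2/3/4/5 and 15.4 and 23.9 in atx1/2/4/5, against 8.17 and 6.82 in Col-0. MIR393B had 2.49 and 1.98 in jmj24/26/28, 3.06 and 3.54 in WDR5A_RNAi and 5.75 and 3.69 in atx4/5. These lay below both Col-0 libraries without being called, while atx1/2 with 8.29 and 4.53 overlapped Col-0. The atx2/3/4/5 value was called lower (log2 fold change -2.56 ± 0.50, limma adjusted p 0.000793) and the atx1/2/4/5 value was not called (1.25 ± 0.50, adjusted p 0.068). Between the genotypes labelled with 4 genes the difference was -3.81 ± 0.50 on the log2 scale (atx2/3/4/5 minus atx1/2/4/5, limma adjusted p 0.000122). MIR393A had at most 2.55 reads in any library, and the mature microRNA was not measured.

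Among the repressors, IAA3 (AT1G04240, also known as SHY2), a brake on root meristem growth, had 401 and 352 normalised reads in atx2/3/4/5, 617 and 548 in atx1/2/4/5 and 778 and 643 in WDR5A_RNAi, against 1171 and 1203 in Col-0. The 3 mutant groups lay below Col-0 without overlap, by log2 fold changes of -1.66 ± 0.11 (SE, limma adjusted p 4.13e-08), -1.03 ± 0.11 (adjusted p 7.31e-06) and -0.75 ± 0.11 (adjusted p 0.00109). IAA3 had 1075 and 879 in jmj24/26/28, 1000 and 951 in atx4/5 and 1163 and 1018 in atx1/2, all below Col-0 but not called. Its set 2 values were 422 and 395 in atx4/5;jmj24 and 370 and 358 in jmj24, against 408 and 327 in Col-0. The IAA3 gene model overlaps 1 gene on the opposite strand.

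IAA4 (AT5G43700), a close relative of IAA3, had 998 and 950 normalised reads in atx2/3/4/5, 1298 and 1246 in atx1/2/4/5 and 1610 and 1383 in WDR5A_RNAi, against 1774 and 1911 in Col-0. The log2 fold changes were -0.92 ± 0.07 (SE, limma adjusted p 1.35e-07), -0.53 ± 0.07 (adjusted p 4.65e-05) and -0.30 ± 0.07 (adjusted p 0.0182). IAA4 had 1895 and 1758 in jmj24/26/28, 1933 and 1900 in atx4/5 and 1871 and 1794 in atx1/2, which overlapped Col-0. Within set 2 it had 2172 and 2203 in atx4/5;jmj24 and 2095 and 2248 in jmj24, against 2025 and 2293 in Col-0.

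IAA1 (AT4G14560), an early auxin-induced gene, had 308 and 356 normalised reads in atx2/3/4/5, 295 and 311 in atx1/2/4/5 and 473 and 473 in WDR5A_RNAi, against 605 and 782 in Col-0. It was the called repressor with the largest fall in atx1/2/4/5 (log2 fold change -1.18 ± 0.12, limma adjusted p 3.23e-06), with -1.05 ± 0.12 in atx2/3/4/5 and -0.54 ± 0.12 in WDR5A_RNAi. IAA1 had 823 and 864 in jmj24/26/28, above both Col-0 libraries but not called, and 705 and 780 in atx4/5 and 608 and 751 in atx1/2, which lay inside the Col-0 range. In set 2 it had 261 and 200 in atx4/5;jmj24 and 214 and 267 in jmj24, against 267 and 254 in Col-0.

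IAA19 (AT3G15540, also known as MSG2), which acts in the bending of the hypocotyl towards light and gravity, had 265 and 259 normalised reads in atx2/3/4/5, 385 and 327 in atx1/2/4/5 and 357 and 440 in WDR5A_RNAi, against 572 and 716 in Col-0. Its log2 fold changes were -1.29 ± 0.14, -0.85 ± 0.14 and -0.69 ± 0.14 (SE), and the 3 groups lay below Col-0 without overlap. IAA19 had 544 and 600 in jmj24/26/28, 552 and 486 in atx4/5 and 498 and 618 in atx1/2. Its set 2 values were 187 and 191 in atx4/5;jmj24 and 235 and 210 in jmj24, against 179 and 174 in Col-0, and these differences did not pass the test.

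IAA5 (AT1G15580) was a lower-level member of the same kind, with 18.7 and 25.3 normalised reads in atx2/3/4/5 and 30.3 and 32.5 in atx1/2/4/5, against 66.4 and 72.3 in Col-0. Its log2 fold changes of -1.62 ± 0.31 and -1.12 ± 0.31 passed the test (limma adjusted p 0.000571 and 0.0103), and the second was lost without atx1/2/4/5 replicate 1 or Col-0 replicate 2. In WDR5A_RNAi IAA5 had 41.9 and 75.0 reads and overlapped Col-0. It had 56.6 and 74.3 in jmj24/26/28, 77.5 and 61.5 in atx4/5 and 40.8 and 65.9 in atx1/2, none of them called. In set 2 IAA5 had 17.1 and 18.3 in atx4/5;jmj24 and 25.3 and 13.99 in jmj24, against 27.3 and 17.2 in Col-0, and in set 1 it had 36.6 and 30.2 in ino80, against 26.1 and 27.6 in Col-0. IAA5 overlaps 1 gene on the opposite strand.

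IAA16 (AT3G04730), the most abundant member per kilobase, fell by a smaller factor but with the smallest adjusted p of the family. It had 4409 and 4490 normalised reads in atx2/3/4/5, 5754 and 5392 in atx1/2/4/5 and 6511 and 6233 in WDR5A_RNAi, against 8115 and 7824 in Col-0. The log2 fold changes were -0.84 ± 0.06 (SE, limma adjusted p 4.06e-08), -0.52 ± 0.06 (adjusted p 8.79e-06) and -0.32 ± 0.06 (adjusted p 0.00369). IAA16 had 8130 and 7615 in jmj24/26/28, 8508 and 7836 in atx4/5 and 8150 and 7657 in atx1/2, which overlapped Col-0. Within set 2 it had 7102 and 6295 in atx4/5;jmj24 and 7167 and 6836 in jmj24, against 7282 and 6715 in Col-0.

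IAA2 (AT3G23030) had 2128 and 2265 normalised reads in atx2/3/4/5, 3037 and 2929 in atx1/2/4/5 and 3026 and 3422 in WDR5A_RNAi, against 3670 and 4597 in Col-0. The log2 fold changes were -0.90 ± 0.10, -0.46 ± 0.10 and -0.35 ± 0.10 (SE), and the WDR5A_RNAi one only just passed (limma adjusted p 0.0402) and was lost with column totals set equal and without Col-0 replicate 2 or either WDR5A_RNAi library. IAA2 had 4130 and 4275 in jmj24/26/28, 3556 and 4064 in atx4/5 and 4106 and 4495 in atx1/2. In set 2 it had 1449 and 1745 in atx4/5;jmj24 and 1391 and 1456 in jmj24, against 1220 and 1336 in Col-0, all 4 mutant libraries above Col-0 and neither difference called as deposited, while with column totals set equal IAA2 was called higher in atx4/5;jmj24.

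IAA13 (AT2G33310), a close relative of IAA12, the repressor of ARF5, had 497 and 534 normalised reads in atx2/3/4/5, 591 and 576 in atx1/2/4/5 and 693 and 640 in WDR5A_RNAi, against 837 and 835 in Col-0. Its log2 fold changes were -0.70 ± 0.08, -0.52 ± 0.08 and -0.33 ± 0.08 (SE). IAA13 also fell in other sets: it had 748 and 747 in atx4/5;jmj24, against 1013 and 914 in Col-0, and 307 and 362 in ino80, against 445 and 467 in Col-0. It had 899 and 873 in jmj24, 737 and 783 in jmj24/26/28, 814 and 765 in atx4/5 and 904 and 861 in atx1/2, none of them called. IAA12 itself had 520 and 502 in atx2/3/4/5 and 446 and 479 in atx1/2/4/5, against 514 and 511 in Col-0, and was called in neither. IAA13 overlaps 1 gene on the opposite strand.

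IAA27 (AT4G29080, also known as PAP2) was the member called in the largest number of comparisons with Col-0 of set 3, 4 of 6. It had 359 and 405 normalised reads in atx2/3/4/5, 312 and 370 in atx1/2/4/5, 444 and 389 in WDR5A_RNAi and 419 and 421 in atx4/5, against 605 and 557 in Col-0. The log2 fold changes were -0.60, -0.77, -0.48 and -0.47, each with an SE of 0.11, and it was the only member called in atx4/5 (limma adjusted p 0.0246). IAA27 had 441 and 468 in jmj24/26/28, below Col-0 but not called (limma adjusted p 0.085), and 517 and 568 in atx1/2, which overlapped Col-0. Its set 2 values were 483 and 436 in atx4/5;jmj24 and 516 and 524 in jmj24, against 586 and 572 in Col-0, and the atx4/5;jmj24 difference was called. The atx4/5 call was lost when any 1 of the 4 libraries compared was left out. IAA27 overlaps 1 gene on the opposite strand.

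IAA18 (AT1G51950) had 704 and 626 normalised reads in atx2/3/4/5 and 769 and 740 in atx1/2/4/5, against 1046 and 1002 in Col-0, with log2 fold changes of -0.62 ± 0.08 and -0.44 ± 0.08 (SE, limma adjusted p 2.01e-05 and 0.000642). In WDR5A_RNAi it had 1035 and 895 and overlapped Col-0. IAA18 had 993 and 1058 in jmj24/26/28, 984 and 1041 in atx4/5 and 1093 and 1139 in atx1/2, and the last pair lay above Col-0 without being called. IAA8 (AT2G22670) had 4694 and 4415 in atx2/3/4/5 and 5464 and 4963 in atx1/2/4/5, against 6126 and 5996 in Col-0. Its log2 fold changes were -0.41 ± 0.06 and -0.22 ± 0.06, and the call in atx1/2/4/5 was lost with column totals set equal or without atx1/2/4/5 replicate 2 or Col-0 replicate 1. IAA8 had 5969 and 5669 in WDR5A_RNAi, 6526 and 5892 in jmj24/26/28, 6645 and 6522 in atx4/5 and 6207 and 5823 in atx1/2, none of them called. In set 2 IAA18 had 1376 and 1653 in atx4/5;jmj24 and 1292 and 1381 in jmj24, against 1317 and 1329 in Col-0, and IAA8 had 5359 and 5789 in atx4/5;jmj24 and 5715 and 5835 in jmj24, against 5854 and 5335 in Col-0.

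IAA29 (AT4G32280), a gene induced in shade and warmth through PIF factors, had the largest fall of the family and was called in 1 genotype. It had 148 and 263 normalised reads in atx2/3/4/5, against 856 and 1349 in Col-0, a log2 fold change of -2.44 ± 0.31 (SE, limma adjusted p 0.000416). It had 575 and 798 in atx1/2/4/5 and 646 and 625 in WDR5A_RNAi, below both Col-0 libraries but not called (log2 fold changes -0.67 and -0.76, limma adjusted p 0.144 and 0.176). IAA29 had 1129 and 1172 in jmj24/26/28, 1036 and 1240 in atx4/5 and 1178 and 1392 in atx1/2, which overlapped the wide Col-0 range. Within set 2 it had 92.3 and 64.2 in atx4/5;jmj24 and 53.6 and 43.8 in jmj24, against 61.2 and 68.6 in Col-0, and in set 1 it had 139 and 165 in ino80, against 202 and 353 in Col-0.

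**Figure D3:**
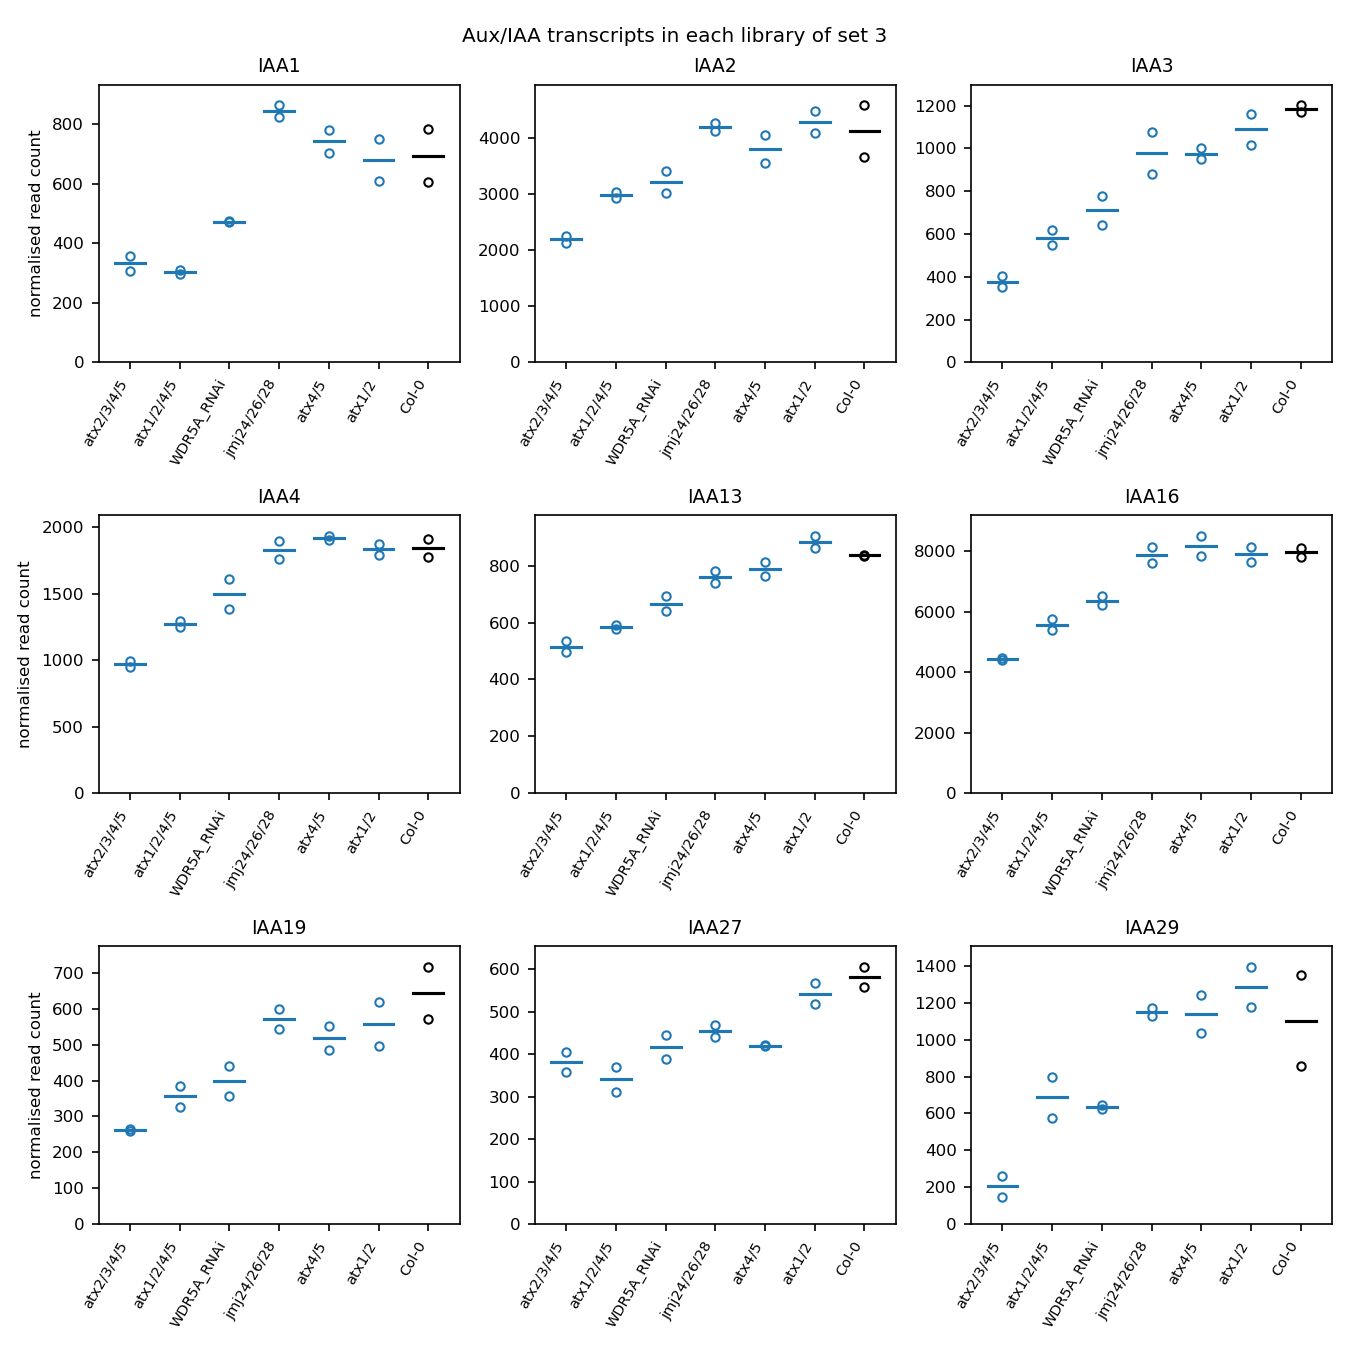
Normalised read counts of 9 repressor genes in each library of set 3, linear axes from 0, with a circle for each library, a bar for each group mean and Col-0 in black on the right. IAA3, IAA4, IAA13, IAA16 and IAA19 are lowest in atx2/3/4/5 and higher in turn in atx1/2/4/5, WDR5A_RNAi and Col-0 by group mean, and IAA29 drops furthest in atx2/3/4/5.

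IAA7 (AT3G23050, also known as AXR2) and IAA17 (AT1G04250, also known as AXR3) were called in atx2/3/4/5 alone among the set 3 comparisons with Col-0. IAA7 had 3190 and 3146 normalised reads in atx2/3/4/5, 4122 and 3823 in atx1/2/4/5 and 4287 and 3751 in WDR5A_RNAi, against 4855 and 4348 in Col-0, and the atx2/3/4/5 fall was -0.54 ± 0.09 on the log2 scale (limma adjusted p 0.000223). IAA7 had 4637 and 3997 in jmj24/26/28, 5549 and 4896 in atx4/5 and 4709 and 4366 in atx1/2, and in set 2 it had 5247 and 5022 in atx4/5;jmj24 and 5750 and 4904 in jmj24, against 5928 and 5244 in Col-0. IAA17 averaged 1689 ± 43.7 in atx2/3/4/5, against 2083 ± 220 in Col-0 (SD, n = 2 each), a log2 change of -0.30 that was lost with column totals set equal and without Col-0 replicate 1 or atx2/3/4/5 replicate 1.

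IAA6 (SHY1), IAA14 (SLR) and IAA34 completed the called members of the genotypes labelled with 4 genes. IAA14, the repressor whose stable form blocks lateral root formation, averaged 932 ± 55.1 in atx2/3/4/5 and 868 ± 158 in atx1/2/4/5, against 1334 ± 32.8 in Col-0 (SD, n = 2 each), and IAA6 averaged 48.6 ± 17.2 and 59.8 ± 18.3, against 95.7 ± 8.23. The IAA6 call in atx1/2/4/5 was lost with column totals set equal and without either Col-0 library, atx1/2/4/5 replicate 2 or either jmj24/26/28 library, and the one in atx2/3/4/5 without its replicate 1. IAA34 averaged 4.86 ± 3.34 in atx2/3/4/5, against 18.0 ± 6.23 in Col-0 (SD, n = 2 each), a call at the edge of detection that was lost without atx2/3/4/5 replicate 2 or Col-0 replicate 1. The IAA34 gene model overlaps 1 gene on its own strand, so reads of the shared stretch cannot be told apart. IAA9, IAA10, IAA11, IAA12, IAA15, IAA20, IAA26, IAA28, IAA30, IAA31, IAA32 and IAA33 were called in none of atx2/3/4/5, atx1/2/4/5 and WDR5A_RNAi. Among them IAA9, the second most abundant member per kilobase, had 7086 and 6801 reads in atx2/3/4/5 and 7856 and 7669 in atx1/2/4/5, against 7006 and 6959 in Col-0.

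The degron classes differed in level, so their calls are set beside it. Of the 23 genes with a degron core, 16 were lower in atx2/3/4/5, 13 in atx1/2/4/5 and 8 in WDR5A_RNAi, and of the 6 without, 1, 0 and 0 were. The 6 without a core had Col-0 means between 5.94 and 38.8 normalised reads, against a median of 836 for the 23 with one. Their median log2 fold change was -0.81 in atx1/2/4/5 and -0.76 in WDR5A_RNAi, against -0.46 and -0.27 for those with one. It was also -0.28 in atx1/2, -0.68 in atx4/5 and -0.40 in jmj24/26/28, against -0.01, 0.00 and -0.02. With atx4/5 as reference the 6 stood at 0.27 in atx1/2/4/5 and 0.03 in atx2/3/4/5, and with atx1/2 at -0.62 in atx1/2/4/5. The medians of these low genes thus depended on the reference libraries. Genes with an auxin response word in the 300-base window were lower in 9 of 16 cases in atx2/3/4/5, against 8 of 13 without one, and in 8 of 16 in atx1/2/4/5, against 5 of 13. These counts are a description and no difference between classes was tested.

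Repressor genes also stand as neighbours. IAA3 and IAA17 on chromosome 1 are 6388 bases apart, IAA14 and IAA1 on chromosome 4 are 10732 apart and IAA2 and IAA7 on chromosome 3 are 12510 apart, each pair facing away from each other with 1 gene between. In atx1/2/4/5 1 neighbour of the IAA3 and IAA17 pair was called (IAA3 -1.03, IAA17 -0.02) and 1 of the IAA2 and IAA7 pair (IAA2 -0.46, IAA7 -0.21), as log2 fold changes, while IAA14 (-0.63) and IAA1 (-1.18) were both called. In atx2/3/4/5 all 6 were called, with IAA3 at -1.66 and IAA17 at -0.30.

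The libraries labelled with 4 genes were also set against those labelled with 2 of the same genes, without Col-0. In atx1/2/4/5 14 members were lower and 1 (IAA9) higher than in the libraries labelled atx1/2, where 31% of all genes were called (15.9% lower, 15.1% higher), and 18 were lower and 1 (IAA26) higher than in atx4/5, where 33.4% of all genes were called (17% lower, 16.4% higher). In atx2/3/4/5 20 members were lower and 1 (IAA10) higher than in atx4/5, where 36.5% of all genes were called (19.1% lower, 17.5% higher). IAA1 had 295 and 311 normalised reads in atx1/2/4/5, against 608 and 751 in atx1/2 and 705 and 780 in atx4/5, log2 differences of -1.16 ± 0.12 and -1.29 ± 0.12 (SE). IAA14 averaged 868 ± 158 in atx1/2/4/5, against 1603 ± 137 in atx4/5 (SD, n = 2 each), a log2 difference of -0.89 ± 0.12. TIR1, not called against Col-0, was lower in atx1/2/4/5 than in atx1/2 (-0.31 ± 0.10, limma adjusted p 0.0366) and atx4/5 (-0.41 ± 0.10, adjusted p 0.00823) and in atx2/3/4/5 than in atx4/5 (-0.31 ± 0.10, adjusted p 0.0351). All 4 receptors were called lower in atx2/3/4/5 than in atx4/5. The 3 TIR1 calls were lost with column totals set equal and without the filter on low values. They were also lost on leaving out single libraries: against atx1/2 without atx1/2 replicate 2 or either library of atx1/2/4/5 or atx2/3/4/5, and against atx4/5 without atx4/5 replicate 2 or atx1/2/4/5 replicate 1 (atx1/2/4/5), or without atx4/5 replicate 2 or either atx2/3/4/5 library (atx2/3/4/5). The AFB2 call in atx2/3/4/5 against atx4/5 was lost with column totals set equal and without atx2/3/4/5 replicate 2, while AFB1 and AFB3 were called there under all 19 alternatives. With column totals set equal the medians of all genes in these comparisons moved up by 0.12, 0.15 and 0.19, and the members split 11 lower and 1 higher, 13 lower and 2 higher, and 18 lower and 3 higher.

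The libraries labelled atx2/3/4/5 and atx1/2/4/5 were compared with each other in a test chosen after the data were seen. In atx2/3/4/5 10 members were lower than in atx1/2/4/5 and 0 higher, where 15.6% of all genes were called, 8.84% lower and 6.76% higher. The 10 were IAA2, IAA3, IAA4, IAA7, IAA16, IAA17, IAA19, IAA29, AFB1 and AFB2. IAA29 differed by -1.78 ± 0.31 on the log2 scale (148 and 263 normalised reads in atx2/3/4/5, against 575 and 798 in atx1/2/4/5, limma adjusted p 0.00724) and IAA3 by -0.63 ± 0.11 (401 and 352, against 617 and 548, adjusted p 0.00161). IAA1, IAA5, IAA6, IAA8, IAA13, IAA14, IAA18, IAA27 and AFB3, which were called lower against Col-0 in both genotypes, were not called in this comparison. IAA3, IAA4 and IAA16 were called under every alternative run. Of the others among the 10, only IAA29 kept its call without atx1/2/4/5 replicate 1, and only IAA2 and IAA7 without its replicate 2. Only IAA29 and AFB2 did without atx2/3/4/5 replicate 1, and only IAA2, IAA29 and AFB1 without its replicate 2. The IAA29 difference was not called without atx1/2/4/5 replicate 2.

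Tissue markers moved with the same libraries. The summed level of 8 green tissue genes was 703700 to 731500 normalised reads in atx2/3/4/5, 859100 to 872900 in atx1/2/4/5 and 1108000 to 1184000 in WDR5A_RNAi, against 1241000 to 1309000 in Col-0. All 8 were called lower in both genotypes labelled with 4 genes and 3 in WDR5A_RNAi. The summed level of 11 root genes was 73990 to 76590 in atx2/3/4/5, 73380 to 84770 in atx1/2/4/5 and 50540 to 51960 in WDR5A_RNAi, against 55350 to 70240 in Col-0, with 2, 0 and 0 of the 11 called higher. No marker was at 0 in any library, and the part of tissue make-up in the changes of the Aux/IAA and receptor genes was not tested.

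In WDR5A_RNAi the 9 members called lower were IAA1, IAA2, IAA3, IAA4, IAA13, IAA16, IAA19, IAA27 and AFB1. Their log2 fold changes ran from -0.75 for IAA3 to -0.30 for IAA4. Of these 9, only IAA3, IAA16 and IAA19 kept their calls without WDR5A_RNAi replicate 2. Without Col-0 replicate 2 only IAA3, IAA16, IAA27 and AFB1 did. IAA3 and IAA16 were called under every alternative run. Each of the other 7 was lost on leaving out at least 1 of the 4 libraries compared. The labels call these seedlings an RNAi line while WDR5A reads were higher than in Col-0, so these changes belong to the libraries under that label.

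In ino80 the members moved in both directions. Of 31 tested members 8 were lower and 3 higher than in Col-0 of set 1, where 22.4% of all genes were called, 11.7% lower and 10.7% higher, and IAA15 and IAA33 were too low to be tested. IAA4 had 639 and 673 normalised reads in ino80, against 878 and 1032 in Col-0 (log2 fold change -0.54 ± 0.09, limma adjusted p 0.00211), IAA16 had 3527 and 3730, against 4471 and 5196 (-0.41 ± 0.08), and IAA3 had 242 and 287, against 341 and 393 (-0.47 ± 0.12). IAA13, IAA18, IAA10, IAA30 and AFB3 were the others called lower. IAA8 was higher with 4017 and 4079 in ino80, against 3478 and 3478 in Col-0 (0.22 ± 0.05), as were IAA17 with 1231 and 1103, against 1016 and 947 (0.25 ± 0.08), and the low-level IAA31 with 21.1 and 25.3, against 5.26 and 9.18 (1.60 ± 0.39).

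Other members named above did not pass in ino80. IAA1 had 321 and 313 normalised reads in ino80, against 363 and 409 in Col-0, IAA19 had 120 and 122, against 139 and 220, and IAA2 had 1229 and 1746, against 1680 and 2532. IAA7 had 2854 and 2693 in ino80, against 2843 and 3080 in Col-0, IAA27 had 345 and 326, against 311 and 354, and IAA18, called lower, had 370 and 430, against 468 and 534. The calls of ino80 rest on 4 libraries and were fragile: the count of 11 fell to 0 without ino80 replicate 1, to 0 without ino80 replicate 2, to 5 without Col-0 replicate 5 and to 4 without Col-0 replicate 6. With column totals set equal 6 members were lower and 5 higher (IAA8, IAA9, IAA17, IAA28 and IAA31). The summed green markers were 633700 to 647400 in ino80, against 749800 to 812900 in Col-0, and the summed root markers 57240 to 68020, against 41370 to 42490, and their part in these changes was not tested.

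In atx4/5;jmj24 4 repressors were lower than in Col-0 of set 2 and 0 members higher, where 7.71% of all genes were called, 4.51% lower and 3.2% higher. They were IAA13 (log2 fold change -0.36 ± 0.07), IAA27 (-0.33 ± 0.09), IAA28 (-0.35 ± 0.08) and the low-level IAA30 (-1.41 ± 0.35). IAA28, a repressor acting in lateral root founder cells, had 548 and 531 normalised reads in atx4/5;jmj24, against 712 and 668 in Col-0, and IAA30 had 14.04 and 13.2, against 33.2 and 43.3. With column totals set equal 3 members were lower, IAA27 no longer among them, and 1 (IAA2) was higher. As deposited, all 4 calls were lost without atx4/5;jmj24 replicate 2 and also without Col-0 replicate 3. Those of IAA27 and IAA30 were lost without Col-0 replicate 4, and those of IAA28 and IAA30 without atx4/5;jmj24 replicate 1. The IAA27 call was also lost without either jmj24 library. Of the green tissue genes 5 of 8 were lower in these libraries and 1 higher, and their part in these calls was not tested. Against jmj24 itself 0 members of atx4/5;jmj24 were called by limma, where 0.746% of all genes were called (0.594% lower, 0.152% higher). An unadjusted p under 0.05 was reached by 4 members, and the share of all genes at that threshold was not counted.

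In jmj24, jmj24/26/28 and atx1/2, 0 of 33 members passed in limma. In jmj24 2.82% of all genes were called (1.43% lower, 1.39% higher), and 6 members had an unadjusted p under 0.05. In jmj24/26/28 3.85% were called (2.58% lower, 1.26% higher), and 5 members had an unadjusted p under 0.05. In atx1/2 0.282% were called (0.201% lower, 0.0805% higher), and 2 members had an unadjusted p under 0.05. In atx4/5 1 member, IAA27, was called lower, where 3.24% of all genes were called (2.27% lower, 0.962% higher), and 8 had an unadjusted p under 0.05. These shares of all genes are at an adjusted p under 0.05. The share at an unadjusted p under 0.05 was not counted, so the member counts at that threshold have no share to be read against. With SEs of 0.06 to 0.12 on the log2 scale for well expressed repressors of set 3 such as IAA16 and IAA1, small shifts could pass unseen in these comparisons.

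The rest of the auxin pathway was counted from lists of its genes in atx2/3/4/5, atx1/2/4/5 and WDR5A_RNAi, each against Col-0 and read beside the shares of all genes given above. Of 16 tested ARF genes, 4 were lower and 3 higher in atx2/3/4/5, 6 lower and 2 higher in atx1/2/4/5 and 0 lower and 1 higher in WDR5A_RNAi. ARF4 averaged 1486 ± 18.6 normalised reads in atx1/2/4/5, against 1049 ± 22.2 in Col-0 (SD, n = 2 each), and ARF3 1032 ± 3.55, against 765 ± 16.5, both higher, while ARF2 averaged 7132 ± 51.6, against 9578 ± 177, and was lower. Of the 5 TOPLESS family genes 3 were higher and 0 lower in atx2/3/4/5, TPL, TPR2 and TPR3, with TPR3 at 1014 ± 75.6, against 782 ± 33.5 in Col-0. In atx1/2/4/5 1 was lower and 0 higher, TPR1 at 1591 ± 25.3, against 1872 ± 19.0, and in WDR5A_RNAi 1 was higher and 0 lower, TPR2 at 2281 ± 55.9, against 1966 ± 27.6. In ino80 TPR4 had 1440 ± 93.6, against 2326 ± 38.6 in Col-0 of set 1. Of 12 genes of the SCF ligase and its RUB modification, 3 were higher and 2 lower in atx2/3/4/5, 3 higher and 0 lower in atx1/2/4/5 and 1 higher and 0 lower in WDR5A_RNAi. AXR1, a subunit of the RUB-activating enzyme, averaged 1209 ± 7.68 in atx2/3/4/5, against 952 ± 36.8 in Col-0, and CAND1, which exchanges the F-box subunits, 2562 ± 11.7, against 2106 ± 1.79, while RCE1, a RUB-conjugating enzyme, was lower at 2110 ± 60.9, against 2584 ± 215 (SD, n = 2 each).

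Among genes of auxin supply and auxin response, more were lower than higher in each of these 3 genotypes. In atx1/2/4/5, where 17.1% of all genes were lower and 16.2% higher, the GH3 and LBD split was close to even. The median log2 fold change of those genes there was -0.02. Of 11 tested synthesis genes 6 were lower and 1 (TAA1) higher in atx2/3/4/5, 3 lower and 1 (TAA1) higher in atx1/2/4/5 and 2 lower in WDR5A_RNAi. YUC8, a flavin monooxygenase of the last step of auxin synthesis, had 132 and 152 normalised reads in atx2/3/4/5, against 463 and 497 in Col-0 (log2 fold change -1.75 ± 0.16), and YUC2 and YUC5 fell by 0.88 and 1.14 on the log2 scale. Of 16 transport genes 8 were lower and 2 higher in atx2/3/4/5, 7 lower and 4 higher in atx1/2/4/5 and 3 lower in WDR5A_RNAi. The efflux carrier PIN3 averaged 3216 ± 147 in atx2/3/4/5, against 6426 ± 384 in Col-0, and the influx carrier AUX1 2898 ± 7.23, against 4774 ± 19.3, while the transporter gene ABCB4 was higher at 2537 ± 46.9, against 1701 ± 193 (SD, n = 2 each). Of 10 tested GH3 and LBD genes 5 were lower and 2 higher in atx2/3/4/5, 3 lower and 2 higher in atx1/2/4/5 and 3 lower in WDR5A_RNAi. The 3 in WDR5A_RNAi were GH3.2, GH3.5 and GH3.6, enzymes that conjugate auxin to amino acids, and GH3.5 had 546 and 521 normalised reads in atx2/3/4/5, against 1330 and 1756 in Col-0. GH3.6 averaged 971 ± 4.32 in atx2/3/4/5, against 2159 ± 189 in Col-0, and GH3.2 408 ± 5.20, against 705 ± 36.0 (SD, n = 2 each).

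SAUR genes, early auxin-induced genes of cell expansion, were lower in 29 and higher in 7 of 74 tested cases in atx2/3/4/5, lower in 17 and higher in 5 in atx1/2/4/5 and lower in 8 and higher in 1 in WDR5A_RNAi. SAUR22 averaged 101.5 ± 24.4 normalised reads in atx2/3/4/5, against 335 ± 54.2 in Col-0, SAUR50 466 ± 43.0, against 1216 ± 218, and SAUR63 56.4 ± 3.87, against 192 ± 7.27 (SD, n = 2 each). SAUR22 and SAUR63 lie in clusters of near-identical copies, so the split of reads among copies is uncertain. The median log2 fold change of the tested SAUR genes was -0.65 in atx2/3/4/5, -0.26 in atx1/2/4/5 and -0.31 in WDR5A_RNAi, while that of the ARF genes was -0.02, -0.13 and 0.01, in both genotypes labelled with 4 genes no larger than the shift of all genes under equal totals.

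**Figure D4:**
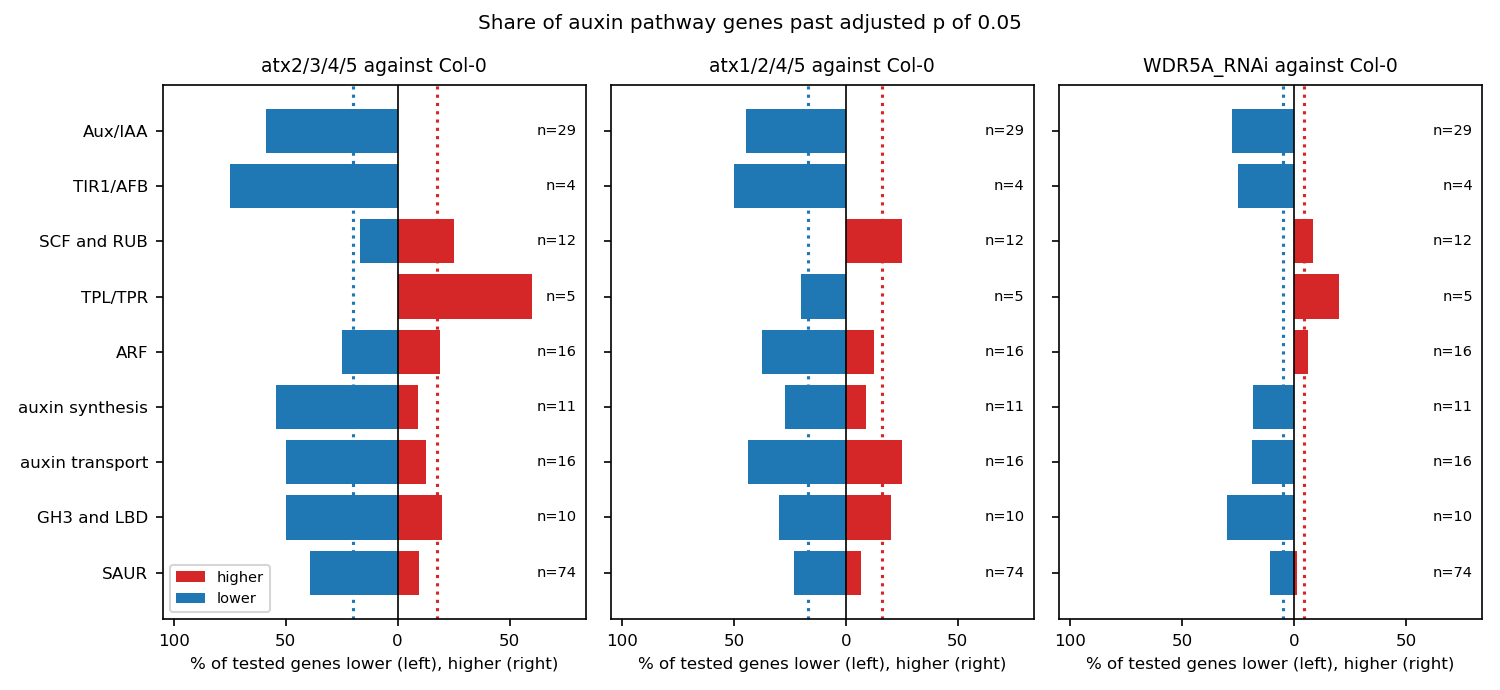
Share of the tested genes of each auxin pathway list called lower (blue, to the left) or higher (red, to the right) in atx2/3/4/5, atx1/2/4/5 and WDR5A_RNAi against Col-0, in percent, with the number tested. Dotted lines mark the share of all genes called lower and higher, and the Aux/IAA bars reach past the blue line in each panel with no red bar.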

How the data were processed

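RNA sequencing had been done on 24 seedling libraries, as 150-base paired or 50-base single reads per the labels' protocols, and per the submitters' processing notes with HISAT2 2.2.0, edgeR (no version given) and the TAIR10 build. Read counter, strand and filters are not given in the sources used here. The deposited values are a normalised signal per gene in 3 tables, by their pattern pseudo-counts of edgeR, that is read counts which the authors rescaled, table by table, to 1 library size. They are not whole numbers and not scaled for gene length, and they are called normalised reads here. Since they are not raw counts, the planned count test did not apply. Values were compared within a table only.

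Genes reaching a value of 1 in 2 or more libraries were kept, 22934, 23740 and 24843 in sets 1 to 3, and log2(value + 1) was modelled over all groups of a table with limma 3.58.1, using robust moderation with a mean-variance trend (statmod 1.5.0, R 4.3.3), and tests are 2-sided. All adjusted p-values are from it. Simulated tables were used to test the fit. With 2 libraries against 2 the smallest exact permutation p is 0.333, so the test rests on spread pooled over groups and genes. The members and lists were chosen with earlier results of these data known. Values in every library are given for the receptors and the 14 called members with the smallest adjusted p against Col-0, and the 3 smallest per pathway list are named; further genes were named after their values were seen. Gene models and sequences are from RefSeq TAIR10.1, to which all 33 identifiers matched; 11 members overlap another gene. SAUR genes were taken from its symbols and synonyms. Alternatives were another pseudocount (0.5), no filter, equal column totals, no trend, a replicate block and leaving out each library.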

Additional observations from a re-analysis of the deposited data

How the results depend on the processing

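No called member changed direction under any alternative run, and of 125 calls of a member in a comparison 70 held whichever library was left out and 68 under every alternative. Leaving out 1 library gave 18 to 21 members called in atx2/3/4/5 against Col-0 and 11 to 18 in atx1/2/4/5, but 3 to 9 in WDR5A_RNAi, 0 to 5 in ino80, 0 to 4 in atx4/5;jmj24, 0 to 1 in atx4/5 and 4 to 10 in atx2/3/4/5 against atx1/2/4/5. Without the filter on low values the counts were 0 in ino80, 1 in jmj24, 0 in atx4/5;jmj24, 0 in atx4/5, 4 in WDR5A_RNAi, 1 in atx4/5;jmj24 against jmj24 and 5 in atx2/3/4/5 against atx1/2/4/5. Without the mean-variance trend they were 0 in ino80, 1 in jmj24, 0 in atx4/5;jmj24, 0 in atx4/5, 5 in WDR5A_RNAi, 1 in atx4/5;jmj24 against jmj24 and 4 in atx2/3/4/5 against atx1/2/4/5. The cause of these moves was not tested. Across all genes, same-numbered replicates deviated together little (22 pairs, correlations of -0.01 to 0.11), and the main fit held no pairing. This does not exclude a shared replicate effect on some genes. In set 3 the summed root markers and IAA7 were higher in replicate 1 than in replicate 2 of every group. With the replicate number as a block, 4 members were called in atx4/5 and 1 in jmj24/26/28, and the other counts stayed within 1.5 times. Col-0 of sets 1 and 2 carries other numbers, so no block could be fitted there against Col-0. Values near 1 rest on about 1 read, which limits IAA15, IAA20, IAA32, IAA33 and the miR393 precursors.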

Other observations

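Col-0 levels of some members differed between the 3 separately normalised tables. IAA29 had 856 and 1349 normalised reads in the Col-0 libraries of set 3, 61.2 and 68.6 in those of set 2 and 202 and 353 in those of set 1, and IAA19 had 572 and 716, 179 and 174, and 139 and 220. IAA16 had 8115 and 7824, 7282 and 6715, and 4471 and 5196, and TIR1 had 2549 and 3046, 3697 and 3898, and 1897 and 1754. No test was made across tables.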
